A study of Mus musculus with 96 samples.

Results

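The messenger RNAs that a mouse egg passes to the embryo, and their level at the late 2-cell stage, were followed by setting 8 single embryos collected at 36 h after fertilization against 5 single embryos collected at 0 h. These 13 libraries, out of 96 in the series, were taken by their labelled hour, and all 55401 gene rows were used. All embryos came from C57BL/6J mothers and fathers, the mothers had received hCG 46 h after PMSG, and no group was treated or carried an altered allele. Embryos were first collected 12 h after hCG and then at steps of 2 h, cumulus cells were taken off with hyaluronidase in M2 medium, and embryos were kept in KSOM. The embryos between both ends (2 h to 24 h, 68 libraries) and 8 oocytes of the same strain were used for the course of each message. Per the labels, embryos from 0 h to late 2-cell were handled as 1 cohort and oocytes as a separate batch, so batch and stage cannot be told apart wherever an oocyte value is given. Neither the number of mothers behind a group nor the age of the animals is given in the sources used here, so each p-value measures the spread between embryos, which may share a mother.

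A fully grown oocyte is transcriptionally silent and lives on stored messages, many of them with short poly(A) tails that are lengthened in the cytoplasm when the protein is needed. After fertilization these messages are removed in waves, first by maternal proteins such as the deadenylase adaptor BTG4, and later with help from products of the embryo's own genome, which in mouse is switched on mainly at the 2-cell stage. Egg coat proteins, meiotic kinases and the oocyte's linker histone are classic examples of products that the embryo no longer makes.

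Libraries were made with SMART-Seq v4, which primes cDNA on poly(A), so a message with a shortened tail and a message that is gone cannot be told apart. Levels are given as CPM, the count of a gene in every 1000000 scaled gene counts of its library. They are shares, so the amount of RNA per embryo is not seen. Gene counts ranged from 1047560 to 1791601 at 0 h and from 1201957 to 3362983 at 36 h. The median correlation of a library with the others of its group was 0.927 to 0.939 at 0 h and 0.777 to 0.838 at 36 h, except for 36 h replicate 6, at 0.731. Of 17 cumulus and granulosa cell markers, 3 (Amh, Amhr2 and Foxl2) were at 0 in all libraries of 0 h and 2 (Amh and Ereg) in all of 36 h. Their summed level ran from 30.7 to 769.5 CPM at 0 h and from 29.8 to 1188 CPM at 36 h, and of the 6 tested 2 were lower and 2 higher at 36 h. Of 9 blood and oviduct markers, Foxj1 was at 0 throughout, Pax8 at 0 h and Ptprc at 36 h. Their sum ran from 25.9 to 2245 CPM at 0 h and from 24.8 to 264.8 CPM at 36 h, and 1 of the 3 tested was lower. The 9 sperm transcripts summed to 50.8 to 89.9 CPM at 0 h and to 60.9 to 101.2 CPM at 36 h, Smcp was at 0 throughout and Tnp1 and Tnp2 at 0 h, and the single one tested passed in neither direction. Without the 3 libraries highest in such markers (0 h replicates 1 and 5, 36 h replicate 3), 2616 of the 3112 lower calls below were made again.

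A gene was called a maternal message when its mean at 0 h was at least 10 CPM and it had at least 1 count in all 5 embryos of 0 h. There were 7152 such messages, of which 7118 passed the filter on low counts and were tested. At an adjusted p under 0.05 (edgeR's quasi-likelihood test, Benjamini-Hochberg over 11677 genes), 3112 genes were lower at 36 h, 26.7% of all tested, and 4480 were higher, 38.4%. DESeq2 with its own size factors called 3212 lower and 7383 higher. Among the maternal messages tested, 3043 were lower, 42.8%, and 1270 were higher, 17.8%. The median log2 change was -0.55 over maternal messages and 0.31 over all genes tested. Maternal messages were chosen by their 0 h level, so that tilt is no result of its own. The median over all genes was 0.44 with library sizes from gene totals alone, 0.21 with scaling factors from the 13 libraries and 0.63 in DESeq2, so changes near 0 are relative to the scaling.

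Each maternal message was put in 1 of 5 classes by its level at 36 h. Lost messages were called lower and their mean was at least 10-fold under that at 0 h, and there were 323 (4.52%). Reduced messages were called lower by less than that, and there were 2720 (38.0%). Kept messages did not pass the test and had the whole 95% interval of their log2 change between -1 and 1, and there were 1046 (14.6%). A further 1270 were higher, and 1793 (25.1%), of which 34 were not tested, met none of these rules and are called undecided. Lost messages made up 15.6% of all CPM at 0 h, 10.3% in oocytes, 10.0% at 14 h and 0.888% at 36 h. Their median level went from 109.97 CPM at 0 h to 7.11 CPM at 36 h. Reduced messages went from 48.3% of CPM to 16.7%, whereas kept messages held 15.0% at 0 h and 15.9% at 36 h. Messages of the higher class went from 10.0% to 42.3%.

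The 8 embryos of 36 h were alike in how much was left of the lost messages. The median lost message stood at 5.04% of its 0 h mean in the embryo with the least and at 6.23% in the embryo with the most. Reduced messages stood at a median of 26.1% to 31.5% across the embryos and kept messages at 79.8% (replicate 3) to 106.9%. The groups did not overlap in 321 of the 323 lost messages, against 2240 genes (19.2%) that were lower without overlap among all tested. These classes were cut from the same contrast, so the figures describe them and test nothing. Both parents were of 1 strain, so a kept message that lasted and one that was made again by the embryo cannot be told apart.

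The message with the largest fitted fall was Mos, the kinase that holds the egg at metaphase II (chromosome 4, 3870657 to 3872105, minus strand, GRCm38). Its 0 h embryos had 969.7, 860.9, 951.6, 762.8 and 909.3 CPM, and the 36 h embryos ran from 0.418 through a median of 3.34 to 20.6 CPM. The groups stood far apart, and replicate 6 was the highest of the 36 h embryos. The log2 change was -7.29 (SE 0.54, adjusted p = 2.3e-09).

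H1foo, the oocyte linker histone (chromosome 6, 115944938 to 115950236, plus strand), had 10266, 8459, 9985, 9697 and 7982 CPM at 0 h. At 36 h it ran from 37.2 through 107.7 to 176.4 CPM, a log2 change of -6.47 (SE 0.35, adjusted p = 7.2e-11). Every embryo of 0 h was thus above every embryo of 36 h.

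Dnmt1, the maintenance DNA methyltransferase (chromosome 9, 20907209 to 20959888, minus strand), spread widely at 0 h, with 1705, 1475, 892.1, 672.0 and 1059 CPM, and lay between 8.68 and 17.3 CPM at 36 h (log2 change -6.38, SE 0.27, adjusted p = 4.7e-12). Zar1, an RNA-binding protein of the egg needed for the first cleavage (chromosome 5, 72576806 to 72581254, minus strand), had 1005, 1030, 1199, 1145 and 894.9 CPM at 0 h and 5.61 to 24.9 CPM at 36 h (log2 change -6.23, SE 0.28, adjusted p = 6.5e-12). Plat, tissue plasminogen activator, had 1522, 1625, 1977, 2018 and 2152 CPM at 0 h and 6.30 to 44.9 CPM at 36 h (log2 change -6.38, SE 0.37, adjusted p = 1.5e-10). In none of the 3 did the groups overlap, and what was left in the 36 h means was 1.19%, 1.32% and 1.22% of 0 h.

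A further 3 of the steepest falls rested on few counts. Sbk3, a kinase gene, had 80 counts over the 5 embryos of 0 h and 1 count in the 8 embryos of 36 h, a 204-fold fall of the pooled counts with an exact conditional 95% interval from 35.6 to 8165 that covers counting error only. Satl1 had 4 counts at 36 h, all in replicate 3, against 13.6 to 47.8 CPM at 0 h, and Col6a6 had 7 counts at 36 h against 14.4 to 48.6 CPM. No lost message was at 0 counts in all 8 embryos. Lamb1, a laminin chain, and Elobl completed the 10 steepest falls, with log2 changes of -6.33 (SE 0.23, adjusted p = 7.8e-13) and -5.95 (SE 0.24, adjusted p = 2e-12).

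Among the lost messages with the highest 0 h means, Ldhb, a lactate dehydrogenase subunit (chromosome 6, 142490249 to 142507957, minus strand), had 9514, 10006, 13309, 13822 and 11932 CPM at 0 h. At 36 h it ran from 340.8 through 588.6 to 811.8 CPM (log2 change -4.28, SE 0.24, adjusted p = 1.4e-10). Obox2, an oocyte homeobox gene of a family with near-identical copies, had 8917, 9034, 12360, 14531 and 12081 CPM at 0 h and 206.4 to 844.2 CPM at 36 h (log2 change -4.58, SE 0.29, adjusted p = 4.7e-10). The groups did not overlap in either gene. Gdf9, a growth factor that the oocyte sends to its follicle cells, had 4301, 3844, 4309, 3750 and 3787 CPM at 0 h and 78.6 to 155.5 CPM at 36 h (log2 change -4.91, SE 0.21, adjusted p = 4.6e-12). The 5 embryos of 0 h lay close together for Gdf9, and so did those of 36 h.

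Rdx, a linker of actin to the membrane, kept 2.44% of its 0 h mean and fell by 5.36 on the log2 scale. Slbp, which binds the stem-loop of histone messages, kept 8.55% and fell by 3.55. Nlrp14, a maternal NLR protein, kept 7.82%, and the oocyte F-box genes Fbxw28 and Fbxw14 kept 5.14% and 6.14%. Adjusted p for these 5 ran from 1.2e-11 for Rdx to 3.4e-09 for Fbxw14. The Fbxw and Obox families hold near-identical copies, and reads were shared between places, so the split between their members is uncertain.

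**Figure D1:**
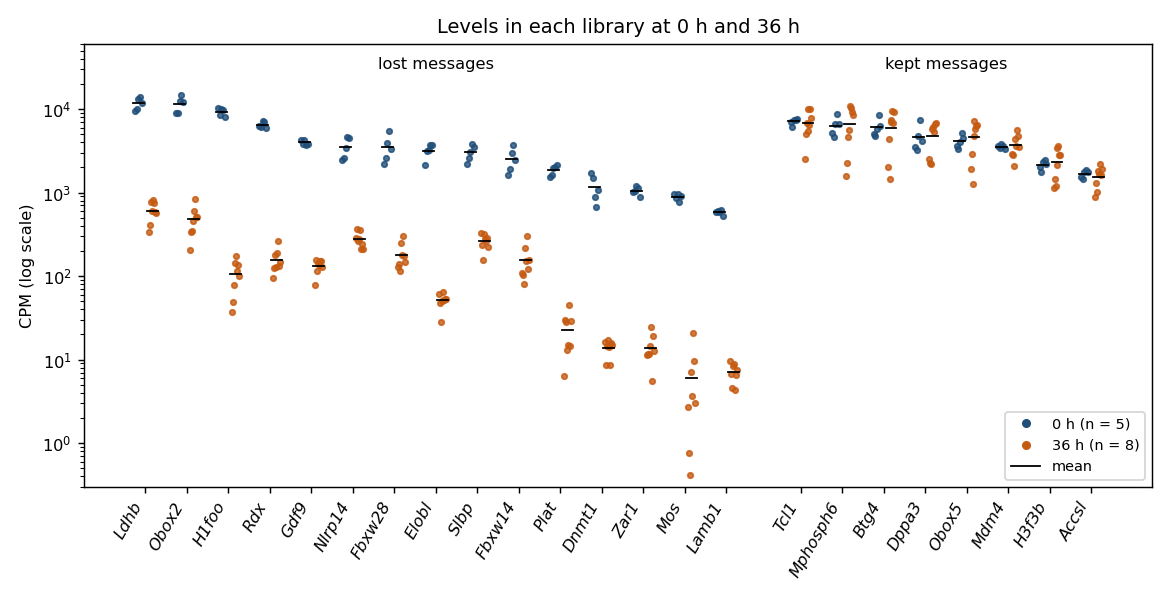
Level in every library of 15 lost messages (the 10 with the highest 0 h means and 5 of those with the largest falls, in order of their 0 h means) and of the 8 named kept messages. The vertical axis is CPM on a log scale, blue points are the 5 embryos of 0 h, orange points the 8 embryos of 36 h, and black lines the means. In each lost message all 36 h points lie under all 0 h points, and in each kept message the groups overlap.

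Stored messages are often woken by a cytoplasmic polyadenylation element, a U-rich site shortly before the poly(A) signal. The element was searched as TTTTAT or TTTTAAT on the sense strand in the last 100 bases of the 3′ UTR of the GENCODE M21 transcript with the longest coding sequence. Of the 26 genes named for their loss or keeping, 8 held it there and 7 of these also had AATAAA or ATTAAA in the last 50 bases. The windows below are 30 bases of GRCm38 around it, written 5′ to 3′ on the gene's strand with T for U and with the element in capitals, and are shown because they place the element in messages that were lost (6) and in 1 that was kept.
H1foo: cgattctgaagcTTTTATtgtctaataagc
Gdf9: agagtgctgtggTTTTATgtgacggaagaa
Dnmt1: gacttgatgtagTTTTATatgttgtaatat
Obox2: taggtcttaattTTTTATtgttagagtata
Rdx: ccattagcataaTTTTATgttgtacaagta
Plat: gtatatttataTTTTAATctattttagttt
Tcl1: gaatgtgtgggaTTTTATgtggttctattt
The windows lie at chr6:115950157-115950186 (H1foo, plus strand), chr11:53437854-53437883 (Gdf9, plus), chr9:20907239-20907268 (Dnmt1, minus), chr7:15398478-15398507 (Obox2, plus), chr9:52088635-52088664 (Rdx, plus), chr8:22782745-22782774 (Plat, plus) and chr12:105216797-105216826 (Tcl1, minus), each within the annotated 3′ UTR. The element began 39 bases before the annotated end in Gdf9, 48 in Dnmt1, 56 in Obox2, 57 in Tcl1, 63 in H1foo and 89 in both Rdx and Plat. Tcl1 was kept, so the letters alone do not separate the classes in this set. Of the 26 named genes searched, 8 were kept and the others lost. Whether the poly(A) signal lay after the element was not checked.

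Over all messages with a 3′ UTR of at least 100 bases, the element stood in the last 100 bases of 71 of 256 lost messages (27.7%), 26.3% of reduced, 201 of 871 kept (23.1%) and 20.7% of higher ones, against 1370 of 5843 maternal messages (23.4%). The AU-rich TATTTAT stood there in 7.03% of lost and 4.36% of kept messages (4.81% of all), and the Pumilio motif TGTANATA in 6.25% and 5.51% (5.78% of all). These are shares with no test. The annotated 3′ UTRs had a median of 754.5 bases in lost, 1119 in kept and 1009 in all maternal messages, and the element anywhere in the UTR was found in 59.6% of lost and 73.6% of kept messages. Median GC content was 42.2% in lost, 40.7% in kept and 41.7% in all. UTRs were known for 84.2% of lost and 87.5% of kept messages, and the transcript form in use in the embryos was not measured here.

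Of the egg coat and secreted factor list, 12 of 13 genes were tested. In all, 11 were lower, none was higher, and the median log2 change was -3.59 against 0.31 over all genes. Among all genes tested 26.7% were lower, and among maternal messages 42.8%. Of the 11, 7 were lost: Zp2 and Zp3, proteins of the zona pellucida, Astl, the protease that cleaves ZP2 after fertilization, Gdf9, Oosp2, Plat and Serpine2. Zp3 had 336.5, 491.0, 550.8, 699.9 and 648.3 CPM at 0 h and 15.1 to 54.2 CPM at 36 h, and its groups did not overlap (log2 change -4.15, SE 0.28, adjusted p = 1e-09). Zp2 varied most at 0 h, with 539.5, 441.5, 582.5, 1420 and 1958 CPM, and lay between 38.1 and 89.5 CPM at 36 h (log2 change -3.79, SE 0.33, adjusted p = 1.8e-08). Astl had 244.3 ± 22.1 CPM (SD, n = 5) before and 4.58 ± 3.85 CPM (SD, n = 8) after, and it fell by 5.71 on the log2 scale. The partner of Gdf9, Bmp15, kept more, with 2463 to 3687 CPM at 0 h and 271.0 to 1211 CPM at 36 h (log2 change -1.87, SE 0.32, adjusted p = 4.5e-05). Zp1, Oosp1 and Oosp3 were reduced, with log2 changes of -2.99, -1.13 and -1.44. Bmp6 did not pass the test, at 24.3 ± 10.4 CPM against 26.0 ± 13.6 CPM.

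The subcortical maternal complex is a protein assembly under the egg cortex that embryos need to get past the 2-cell stage. All 8 tested messages of the complex and its partners were maternal messages and lower at 36 h. Among all genes tested 26.7% were lower, and among maternal messages 42.8%. None of the groups of these 8 overlapped, against 19.2% of all genes tested and 2224 of 7152 maternal messages that were lower without overlap. The median log2 change was -3.52. The core members Khdc3, Tle6, Ooep and Nlrp5 were lost. Nlrp5 had 1064, 1026, 1161, 1497 and 1833 CPM at 0 h and 61.2 to 112.5 CPM at 36 h (log2 change -3.97, SE 0.21, adjusted p = 5.3e-11). Khdc3 fell from 215.7 ± 50.7 to 5.16 ± 2.67 CPM and was at 0 in 36 h replicate 6 (log2 change -5.34, SE 0.38). Oocytes held 4.05 ± 2.32 CPM of Khdc3, so its fall is seen against 0 h and not against the oocytes measured, where it was not tested. Padi6, Nlrp2 and Nlrp4f were reduced, with 13.6%, 12.1% and 26.3% of their 0 h means left. Zbed3 kept 47.6% and its 36 h embryos spread from 1051 to 6177 CPM (log2 change -1.07, SE 0.34, adjusted p = 0.009). Without the 3 libraries high in markers of other cells, Zbed3 had an adjusted p of 0.052.

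Of 19 other maternal-effect genes tested, 12 were lower and 1 higher (median log2 change -1.86). The counts of this list and the next stand against 26.7% lower among all genes tested and 42.8% among maternal messages. Tet3, which oxidizes methylcytosine in the zygote, fell from 856.1 ± 206 to 47.8 ± 17.9 CPM, and Bcl2l10, of the BCL2 family, from 6229 ± 893 to 1181 ± 560 CPM (log2 changes -4.17 and -2.40). Of 13 genes of DNA methylation and demethylation, 5 were lower and 4 higher (median 0.06, and -0.51 with scaling factors from the 13 libraries), and the lower ones included the whole trio that was lost, Dnmt1, Tet3 and Uhrf1. Uhrf1, which brings DNMT1 to replicating DNA, fell from 257.1 ± 26.5 to 17.2 ± 10.4 CPM (log2 change -3.90, SE 0.33, adjusted p = 1.4e-08).

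Of 30 genes of meiotic arrest and maturation tested, 17 were lower and 5 higher (median -0.93), 4 of them lost. Ccnb1, the mitotic cyclin, was reduced from 1882 ± 443 to 773.9 ± 199 CPM (log2 change -1.28), and Birc5, of the chromosomal passenger complex, from 1081 ± 324 to 449.2 ± 91.3 CPM (-1.27). Mad2l1, of the spindle checkpoint, was kept at 1260 ± 385 and 1214 ± 540 CPM. Of 13 genes of meiotic prophase, 3 were lower and 5 higher, Dazl, a translation regulator of germ cells, among the former (log2 change -2.10) and Sycp3, of the synaptonemal complex, among the latter (1.58). Of 15 oocyte transcription regulators, 7 were lower and 4 higher (median -0.62). Of 34 members of oocyte gene families 23 were lower and 6 higher (median -2.27), 9 of them lost. Among all genes tested 26.7% were lower and among maternal messages 42.8%. Nothing particular to a list is read from counts near these shares.

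Of 30 genes of deadenylation, decapping and uridylation, 10 were lower, 5 higher and 15 passed in neither direction (median -0.17), whereas DESeq2 called 9 lower and 9 higher. With 26.7% of all genes and 42.8% of maternal messages lower, that count says nothing particular of the list. Pabpn1l, a poly(A)-binding protein of the egg, was lost, with 366.6 to 669.7 CPM at 0 h and 3.68 to 31.8 CPM at 36 h (log2 change -5.54, SE 0.43, adjusted p = 3.9e-09). Cnot6l, a deadenylase of the CCR4-NOT complex, was reduced from 731.8 ± 60.3 to 184.2 ± 70.4 CPM (-1.99). Its partner deadenylase Cnot7 was kept, at 1098 ± 410 and 1036 ± 304 CPM. Of 27 genes of mRNA storage and cytoplasmic polyadenylation, 11 were lower and 7 higher (median -0.50). Among these Igf2bp2, an RNA-binding protein, was reduced with a log2 change of -3.26, and Papola, the nuclear poly(A) polymerase, from 236.1 ± 23.1 to 83.1 ± 28.6 CPM.

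The counts of the next lists stand against 42.8% lower among maternal messages and 26.7% among all genes, and nothing particular to them is read from counts near these shares. Of 35 histone modifiers, 18 were lower and 8 higher (median -0.87), with Ezh2, the H3K27 methyltransferase, going from 648.1 ± 75.4 to 98.99 ± 13.2 CPM (log2 change -2.71). Of 24 growth factor receptors and signalling genes, 13 were lower and 3 higher (median -0.95), with Kit down from 201.4 ± 12.8 to 49.01 ± 13.8 CPM (-2.03). Of 13 genes of egg activation and calcium signalling, 6 were lower and 3 higher (median -0.32). Calm2, which encodes the calcium sensor calmodulin, was higher, with a log2 change of 1.18, but did not pass in 1 edgeR fit of 81 libraries (adjusted p = 0.062). The housekeeping lists were split: 10 lower and 9 higher of 31 proteasome genes, 19 and 21 of 52 nuclear respiratory chain genes, and 8 and 6 of 19 cytoskeleton genes. Their medians were -0.03, 0.09 and 0.02, and turned to 0.05 for the proteasome with gene totals alone, to 0.07 for it in DESeq2, and to -0.07 for the cytoskeleton with scaling factors from the 13 libraries.

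**Figure D2:**
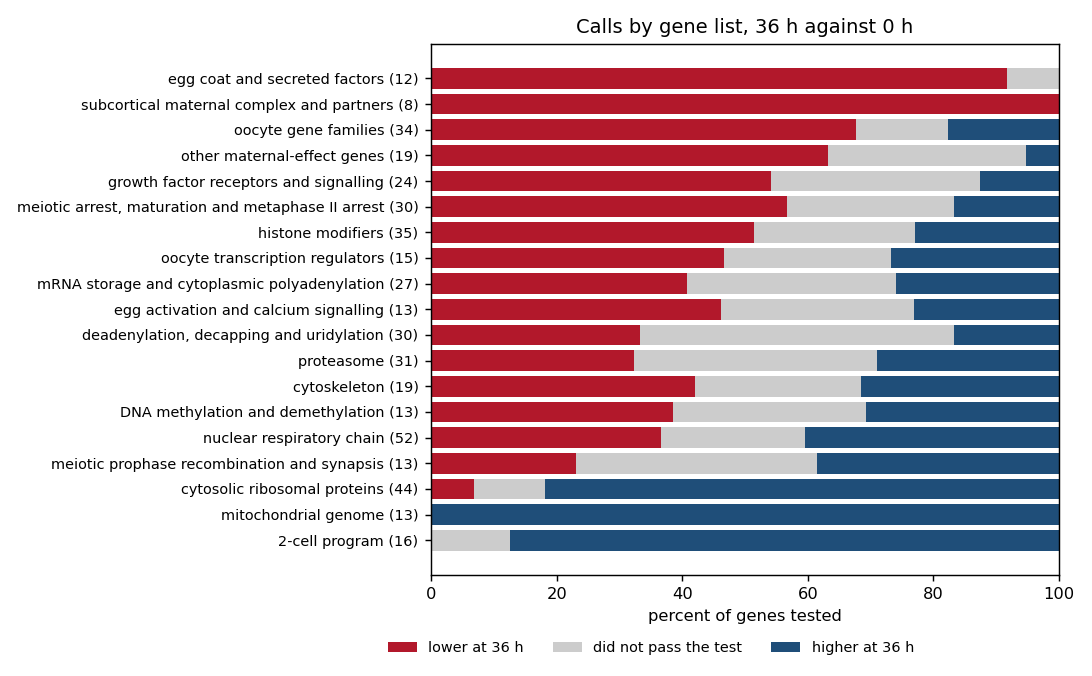
Share of the genes tested in each of the 19 lists that were lower (red), higher (blue) or passed in neither direction (grey) at 36 h against 0 h, with the number tested in parentheses and the lists ordered by their median log2 change. The order runs from the egg coat list (11 of 12 lower) and the subcortical complex (8 of 8 lower) to the mitochondrial genome (13 of 13 higher) and the 2-cell program (14 of 16 higher).

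The kept class holds messages that did not pass the test and whose interval lay within a 2-fold change either way. Its members with the highest 0 h means follow. Btg4, the adaptor that brings the CCR4-NOT deadenylase to maternal messages (chromosome 9, 51060901 to 51119875, plus strand), had 4981, 4708, 5719, 8498 and 6266 CPM at 0 h. At 36 h it had 2043, 4337, 1470, 6997, 7361, 9399, 6809 and 9157 CPM (log2 change -0.02, 95% interval -0.79 to 0.75, adjusted p = 0.96). Replicates 1, 2 and 3 of 36 h lay under all embryos of 0 h, and replicates 6 and 8 lay above them all.

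Tcl1, an AKT cofactor (chromosome 12, 105216750 to 105222793, minus strand), had 6977, 6010, 7486, 7381 and 7665 CPM at 0 h and from 2522 through 6592 to 10122 CPM at 36 h (log2 change -0.07, interval -0.64 to 0.50). Dppa3, known as Stella, which protects the maternal genome from demethylation, had 3517, 3204, 4757, 7332 and 4175 CPM at 0 h and from 2209 through 5515 to 6875 CPM at 36 h (0.03, interval -0.63 to 0.70). Mphosph6, an exosome cofactor, had 4567 to 8604 CPM at 0 h and 1583 to 10965 CPM at 36 h (0.07, interval -0.73 to 0.87). Beside the lost Obox2, its relative Obox5 was kept, with 3302 to 5162 CPM at 0 h and 1266 to 7113 CPM at 36 h (0.14, interval -0.58 to 0.86).

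Mdm4, a p53 inhibitor, H3f3b, which encodes histone H3.3, and Accsl were kept with log2 changes of 0.07, 0.10 and -0.11. Kept is read against 0 h alone. Against oocytes, another batch, Accsl, Tcl1 and Btg4 were lower at 36 h, with log2 changes of -1.08, -0.99 and -0.70. Their adjusted p were 1.7e-05, 0.00036 and 0.035. Mphosph6, Dppa3, Obox5, Mdm4 and H3f3b passed in neither direction against oocytes. H3f3a, the other gene of histone H3.3, was reduced against 0 h, from 1064 ± 93.8 to 260.6 ± 73.5 CPM (log2 change -2.03, SE 0.20, adjusted p = 9.9e-08). Its level was 68.9 ± 10.4 CPM in oocytes and 80.6 ± 34.9 CPM at 14 h. At 36 h H3f3a was thus higher than at 14 h (log2 change 1.70, adjusted p = 5.5e-05) and than in oocytes (1.92, adjusted p = 2.5e-09). In each of the 8 named kept messages the SD among 36 h embryos was larger than among 0 h embryos, and the lowest 36 h value came from replicate 1 or replicate 3. An interval that lies within a 2-fold change either way does not show that a level was unchanged. With the 3 libraries high in other cells' markers left out, 658 messages met the rule for kept and 2806 were undecided.

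Of the 1270 maternal messages that were higher, the 4 with the highest 0 h means were Omt2a, Omt2b, Tcl1b1 and mt-Cytb. Omt2a, an oocyte maturation gene with the near-identical neighbour Omt2b, had 4626, 4085, 5045, 5990 and 4098 CPM at 0 h and from 9902 through 14226 to 25836 CPM at 36 h (log2 change 1.62, SE 0.26, adjusted p = 2.2e-05). Tcl1b1 was higher by 1.33, although its lowest 36 h embryo, at 1926 CPM, lay under the 0 h mean of 2198 CPM. All 13 protein-coding messages of the mitochondrial genome were higher (median log2 change 3.75), mt-Cytb from 2011 ± 577 to 34854 ± 14314 CPM. Of 44 cytosolic ribosomal protein genes 36 were higher and 3 lower (median 2.42), Rplp1 and Rpl32 being among the lower (-1.37 and -0.91). Rpl32 did not pass in 1 edgeR fit of 81 libraries (adjusted p = 0.055). Of 16 genes of the 2-cell program, which the embryo switches on itself, 14 were higher and none was lower.

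The hour of loss was read for the 2605 maternal messages that were called lower and at least 2-fold lower by their means. The hour of lasting loss was the earliest hour from which the group mean was at or under 50% of the 0 h mean at that and every later hour, so 36 h is the latest a message could have by the choice of messages. The 0 h libraries enter both the choice and every share, and hours rest on 2 (4 h) to 10 (22 h) embryos. The 4 h and 6 h libraries share 1 title code, which itself ends in b, so the labelled hour alone sets them apart. With 4 h and 6 h merged, 323 messages were lastingly at or under 50% by 14 h and 1113 by 24 h, the same as with them apart. The library labelled 10 h replicate 5 stood apart: its median Spearman correlation with its group over maternal messages was 0.19, against 0.77 or more in every other library of the course, and the median lower message was at 0.789% of 0 h in it, against 72.9% to 93.5% in the other 4. Btg4 had 22.8 CPM in it and 12077 to 15421 CPM in the others. It is part of the 10 h means below unless stated, and values without it are given beside them. At 24 h the median lower message ran from 37.9% to 80.6% of 0 h by embryo. Replicates 5 and 6, whose titles end in b, were at 80.6% and 63.1%, and replicates 1 to 4 at 37.9% to 48.2%. The labels do not give what b marks, and its part in this was not tested. The median of the lower messages was 98.1% of its 0 h level by 2 h and 74.1% by 12 h. It stood at 81.8% by 14 h, at 73.7% by 22 h, at 56.5% by 24 h and at 25.8% by 36 h.

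By the group means, most messages crossed late. For 1492 (57.3%) the mean was lastingly at or under 50% at 36 h alone, and for 496 (19.0%) at 24 h. The step from 24 h to 36 h holds no library and is longer than the 2 h steps before it, so these counts are not rates. That majority at 36 h alone depended on the rule. With group medians in place of means, 1262 had crossed by 24 h and 1252 crossed at 36 h alone. By the first hour at or under 50%, with no need to stay there, these were 1512 and 1093. By 14 h, within the 1-cell stage, 323 (12.4%) had crossed for good, and by 24 h 1113 (42.7%). Without 10 h replicate 5 the number by 14 h was the same, but 29 in place of 48 crossed at 10 h and 194 in place of 170 by 8 h. From 2 h to 22 h the share that crossed at a sampled hour ran from 0.998% (8 h) to 4.18% (16 h). Of the 170 that crossed at 2 h to 8 h, 35.9% belonged to the lost class, of 153 at 10 h to 14 h 28.8%, of 294 at 16 h to 22 h 23.5%, at 24 h 15.9% and at 36 h 4.69%. These shares share libraries with the choice of messages and carry no test.

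A test at each hour gave the timing an error. In 1 edgeR fit of 81 libraries, messages were given the earliest hour from which they passed the test and were 2-fold lower or more, at that and every later hour. That was reached by 14 h for 162 messages (6.22%), by 24 h for 921 (35.4%) and by 36 h for 2567 (98.5%). Without 10 h replicate 5 these were 237, 1051 and 2591. With no need to stay low, 1001 messages had been at or under 50% in some hour up to 14 h (947 without that library). The first hour at 50% or less came before the lasting one for 872 messages (33.5%; 805 without that library).

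**Figure D3:**
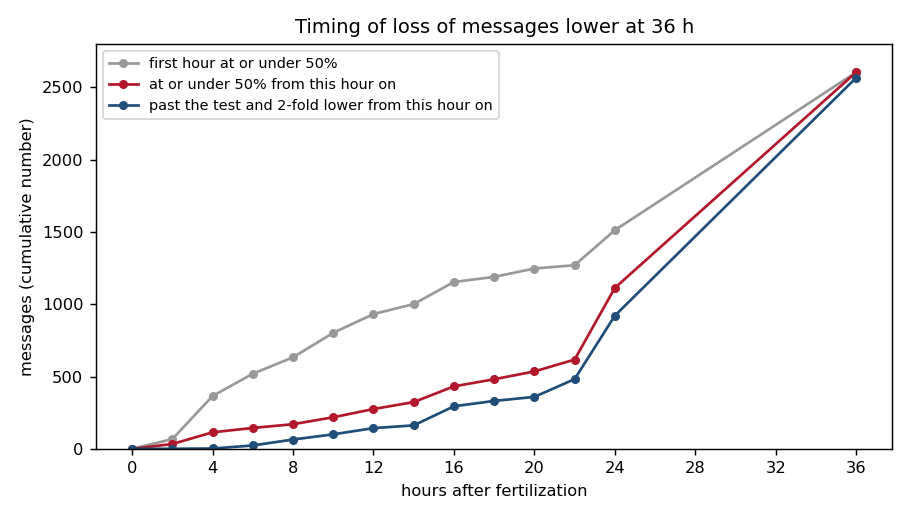
Cumulative number of the 2605 lower messages against hours after fertilization by 3 rules: the first hour with a mean at or under 50% of 0 h (grey), the hour from which it stayed there (red), and the hour from which the message was past the test and 2-fold lower (blue). By 14 h the lines stand at 1001, 323 and 162 messages. From 22 h to 24 h they gain 242, 496 and 439, and the grey line gains more, 298, from 2 h to 4 h. The last step, from 24 h to 36 h, is longer than the others, which are 2 h each.

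Messages that crossed early were low in oocytes as well. In the group that crossed at 2 h to 8 h the median oocyte level was 16.0% of the 0 h mean and the median at 14 h was 15.1%, and 162 of 170 had an oocyte mean at or under 50% of 0 h. That held for 78.4% of those that crossed at 10 h to 14 h, 24.8% at 16 h to 22 h, 10.3% at 24 h and 8.18% at 36 h, against 14.5% of all maternal messages. In the group that crossed at 36 h the median was 100.3% in oocytes and 100.97% at 14 h. These shares all have the 0 h mean as their base, and oocytes were another batch.

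**Figure D4:**
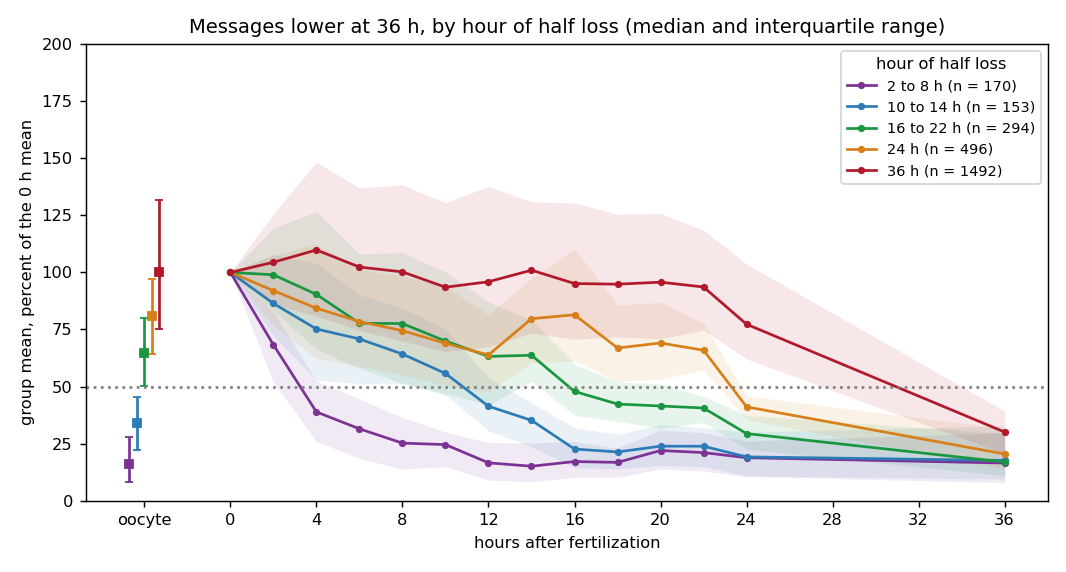
Median (points and lines) and interquartile range (bands, and bars for oocytes) of the group means as a percent of the 0 h mean, against hours after fertilization, for lower messages grouped by their hour of lasting loss. The dotted line is 50%. Messages that crossed at 2 h to 8 h start at 16.0% in oocytes, peak at 0 h and are at 38.9% by 4 h, whereas those that crossed at 36 h stay near 100% up to 22 h. The 10 h means include replicate 5.

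Of the lower messages, 2 of 11 in the egg coat list (Zp2 and Zp3) and 3 of 8 in the subcortical complex list (Khdc3, Tle6 and Nlrp5) crossed by 8 h, and 3 and 4 crossed at 36 h alone. Zp2 was at 267.8 CPM at 2 h and Elobl at 1027 CPM, from 988.3 and 3177 CPM at 0 h. Tle6 and Zp3 crossed at 4 h, Nlrp5 at 6 h, and Ldhb and Lamb1 at 8 h. Tle6 went from 570.1 ± 88.7 CPM at 0 h through 265.6 CPM at 4 h to 113.3 ± 44.8 CPM at 8 h, and in oocytes it was at 69.3 ± 15.4 CPM. Ldhb stood at 11717 ± 1923 CPM at 0 h, fell to 4240 ± 878 CPM by 8 h, and its oocyte level was 1780 ± 475 CPM. All of these were thus higher at 0 h than in the oocytes measured.

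Messages that crossed later in the 1-cell stage included Mos and Ube2t at 10 h, Zar1 at 10 h with and at 12 h without replicate 5 (561.7 ± 33.5 CPM, 53.3% of 0 h, in the other 4), Rdx, Plat and Smc3 at 12 h, and H1foo and Psma2 at 14 h. Mos had 1182 ± 201 CPM at 2 h and 293.7 ± 202 CPM by 10 h (366.9 ± 137.3 CPM without replicate 5), and its level was 73.1 ± 75.4 CPM by 14 h and 19.2 ± 9.16 CPM by 16 h. H1foo had 8549 ± 987 CPM at 8 h, then 4538 ± 1624 CPM by 14 h, and 693.6 ± 647 CPM by 24 h. Gdf9, Nlrp14 and Tm9sf2 crossed at 16 h, where Gdf9 dropped from 2887 ± 1092 CPM at 14 h to 1129 ± 616 CPM. Several SDs at 10 h to 16 h were large against the means, so neighbouring hours of single messages can overlap.

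The cohesin and condensin messages Smc3 and Smc4 crossed at 12 h and 20 h, Txnip, a thioredoxin inhibitor, at 22 h, and Hsp90aa1, a chaperone, and Ssb, the La protein, at 24 h. Obox2, Zbed3 and Bcl2l10 crossed at 36 h alone. Slbp had 3046 ± 670 CPM at 0 h and 8085 ± 1815 CPM by 8 h, and went from 5376 ± 1679 CPM in the 24 h embryos to 260.3 ± 55.2 CPM in those of 36 h. Of the named messages of the last group, Obox2 was at 96.9% of its 0 h mean at 14 h and 68.6% at 24 h. Others of that group had been low before: Padi6 was at 27.7% at 10 h (34.6% without replicate 5) and 51.7% at 24 h, and Cnot6l at 37.6% at 18 h and 51.3% at 24 h. No library lies between 24 h and 36 h.

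**Figure D5:**
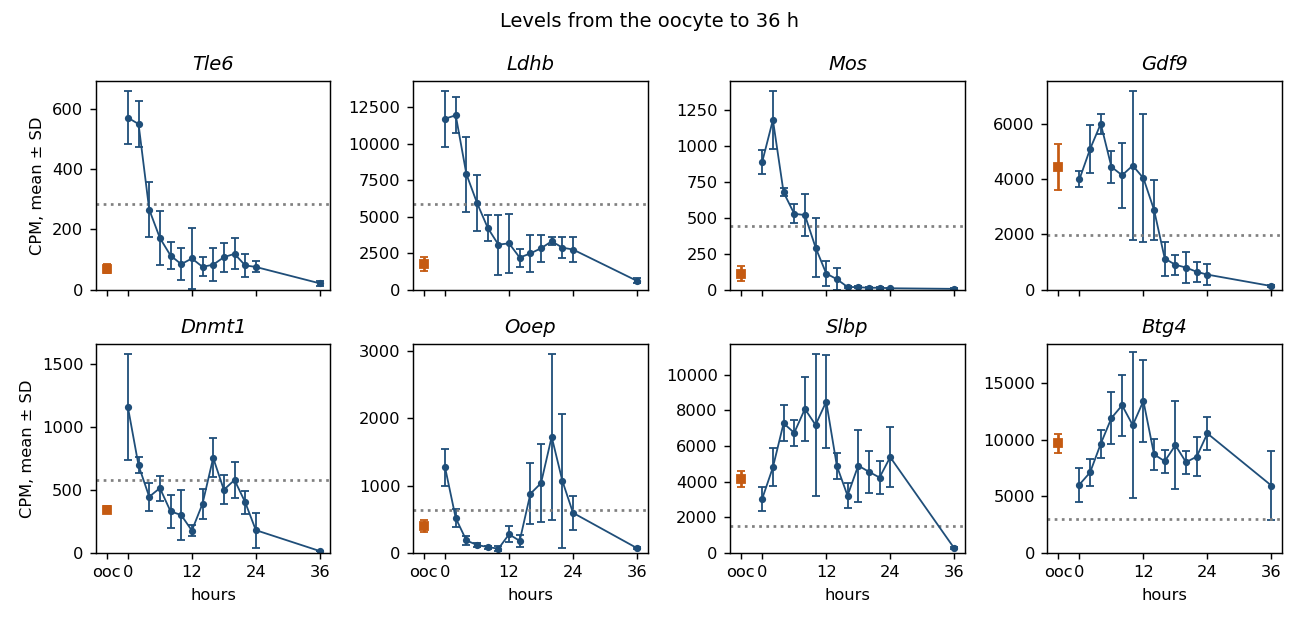
Level (CPM, mean ± SD over libraries) of 8 messages against hours after fertilization, with the oocyte group (orange square) to the left and a dotted line at 50% of the 0 h mean. Tle6 and Ldhb fall early, Mos from 2 h to 16 h, and Gdf9 between 12 h and 16 h. Dnmt1 and Ooep dip, return and fall again, Slbp falls after 24 h, and Btg4 is above its 50% line at every hour. The 10 h points include replicate 5.

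Some messages were under the 50% line in the 1-cell stage and over it at a later hour before 36 h. The rule below sets no least size for that return, and the return was not tested. Of the 2605, 607 (23.3%) were at or under 50% in some hour from 8 h to 14 h and over 50% in some hour from 16 h to 24 h, and 554 (21.3%) without 10 h replicate 5. Ooep had 1271 ± 273 CPM at 0 h and 60.6 ± 33.0 CPM by 10 h (75.2 ± 5.96 CPM without replicate 5), stood at 1727 ± 1233 CPM by 20 h, and ended with 69.4 ± 10.7 CPM. Dnmt1 went from 1160 ± 423 CPM at 0 h to 176.8 ± 41.8 CPM at 12 h, back to 756.0 ± 155 CPM at 16 h and down to 13.9 ± 3.32 CPM. Birc5 was at 110.9 ± 45.6 CPM at 10 h (131.1 ± 7.88 CPM without replicate 5) and 863.2 ± 198 CPM at 24 h. Elobl counts as crossing at 2 h and so lies outside this set. It was at 63.7 ± 41.2 CPM at 10 h (79.2 ± 25.8 CPM without replicate 5). At 20 h it stood at 1315 ± 750 CPM, 41.4% of its 0 h mean. Oocytes held 394.2 ± 89.1 CPM of Ooep, 344.7 ± 29.4 CPM of Dnmt1 and 157.2 ± 32.7 CPM of Birc5, each under its 0 h mean. The hours from 16 h to 24 h include titles that end in b, whose meaning the labels do not give. All libraries of 20 h have such titles, and the part of b in the return was not tested.

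The loss was split by 2 further tests, which share libraries with the first and are given side by side. From 0 h to 14 h, 1458 of 8785 genes were lower (16.6%), from 14 h to 36 h 2952 of 12990 (22.7%), and against oocytes 3432 of 10401 genes were lower at 36 h (33%). Median log2 changes of the lost messages were -0.73 from 0 h to 14 h, -3.37 from 14 h to 36 h and -3.44 from oocytes to 36 h, and those of the reduced messages -0.22, -1.43 and -1.47. Kept messages were at 0.07, -0.06 and -0.06.

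Single messages divided differently. Elobl changed by -4.49 from 0 h to 14 h and by -1.50 from 14 h to 36 h, and Khdc3 by -6.03 (adjusted p = 1e-10) and 0.59 (adjusted p = 0.43). Mos was even, with -3.56 and -3.66. Obox2 changed by -0.05 (adjusted p = 0.89) and then by -4.53 (adjusted p = 2.1e-09), and Gdf9 by -0.47 (adjusted p = 0.17) and -4.44. Slbp was higher at 14 h by 0.68 (adjusted p = 0.0094) before it fell by 4.23. From oocytes to 36 h the log2 change was -0.80 for Elobl, -0.33 for Zp2 (adjusted p = 0.10) and 0.35 for Bmp15 (adjusted p = 0.23), whereas it was -5.91 for H1foo, -5.55 for Zar1 and -5.06 for Gdf9. The kept messages Tcl1 and Cnot7 were higher at 14 h than at 0 h, by 0.73 and 0.93, and lower at 36 h than at 14 h, with log2 changes of -0.79 and -1.01, and with adjusted p of 0.013 and 0.0033 for the first step and 0.027 and 0.00098 for the next.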

How the data were processed

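The authors deposited 1 table of expected counts for 55401 Ensembl genes and 873 repeat families in 96 libraries of single oocytes and embryos; 28.4% of the non-zero gene values were not whole. Per the submitters' processing notes, Trimmomatic 0.39, STAR, featureCounts and mm10 were used; the annotation release, the use of strand and the option behind the fractions are not given in the sources used here. The kit does not mark strand, so antisense and overlapping genes and near-identical copies are uncertain. Expected counts were rounded, repeat rows were left out, and CPM were computed from gene totals with TMM factors estimated over 89 libraries (oocytes and 0 h to 36 h). Gene totals of these ranged from 564266 to 6795040. Samples were grouped by the labelled hour.

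Tests used edgeR 4.0.16 (R 4.3.3): filterByExpr, trended dispersion, robust quasi-likelihood F test, two-sided, Benjamini-Hochberg over the genes tested, threshold 0.05, each pair of groups alone; timing used 1 fit of 81 libraries. DESeq2 1.42.0, other scalings, no filter, no rounding, a replicate block, leaving out libraries and other rules for the hour were alternatives. The fits were checked on simulated data. A gene that passed in neither direction may still have changed. Intervals of pooled counts are exact and conditional, at 95%, and cover counting error only. Symbols and coordinates are from GENCODE M21 (GRCm38): with the version left off, 55141 identifiers were found there (54349 with it), and 260 stayed without a symbol. A symbol shared by several identifiers stayed with the one with most counts.

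Named genes were the 10 lost messages with the largest fitted fall and no overlap, the 10 lost messages with the highest 0 h mean, the 8 kept messages with the highest 0 h mean and a log2 change within 0.5 of 0, the 4 higher ones with the highest 0 h mean, the 3 highest per hour of lasting loss, all genes of the first 2 lists and the 4 highest of each other list, without unnamed, Gm, Rik and pseudogene rows; the text gives part of these 125 genes, and H3f3a beside H3f3b. The members, the 19 gene lists and the 3 marker lists were chosen with earlier results of these data known. Symbols of 1 gene of the subcortical complex list and 1 of the 2-cell list did not match a row. The values of 1 named gene are not reported here.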

Additional observations from a re-analysis of the deposited data

Results flagged for a closer look

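Of the named messages, 70 genes were looked at for a library far from the others of its group, in 140 groups, and 10 values stood apart; chance alone gives about 1 in 20 such groups. Of these, 4 were in 36 h replicate 6, which also had the lowest correlation with its group, 2 in 36 h replicate 3, 2 in replicate 8, and 1 each in 36 h replicate 1 and 0 h replicate 1. In 36 h replicate 6, Mos was at 20.56 CPM (0.418 to 9.74 CPM in the other 7), Oosp2 at 71.03 CPM (18.8 to 39.0), Omt2a at 25836 CPM (9902 to 15530) and Omt2b at 22845 CPM (9001 to 14932). In 36 h replicate 3, Elobl was at 28.4 CPM (47.6 to 64.5 in the others) and Satl1 at 1.67 CPM, with 0 in the other 7. In 36 h replicate 8, Sbk3 was at 0.752 CPM, with 0 elsewhere, and Myocos at 54.2 CPM (31.8 to 39.2). Brix1 was at 557.8 CPM in 36 h replicate 1 (124.6 to 267.1 in the others), and Tle6 at 414.6 CPM in 0 h replicate 1 (594.5 to 638.1).

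Counts of the 873 repeat families, which no comparison above used, came to 25.94% of the gene counts at 36 h (21.2% to 35.2%), against 4.35% at 0 h (3.77% to 5.04%) and 5.29% in oocytes.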

How the results depend on the processing

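The number of lower genes was 3112 and lay between 2901 and 3191 when single libraries were left out, and the number of lost messages, 323, between 308 and 337. The higher calls, 4480, went to 7383 in DESeq2 and to 7111 with no filter on low counts, both of which tested more genes. Without the 3 libraries high in other cells' markers, 658 messages were kept and 2806 undecided, from 1046 and 1793. Of the lower messages, 323 had crossed lastingly by 14 h and 617 by 22 h; by the first hour at or under 50% these were 1001 and 1270. For a fall to 25% in place of 50%, 65 had crossed by 14 h, 149 by 22 h and 260 by 24 h, and 988 crossed at 36 h alone. In the test at each hour, 162 messages were lower by 14 h, and 237 without 10 h replicate 5, a setting added after seeing the data. Leaving out single 0 h libraries gave 298 to 341 lasting crossings by 14 h and 1053 to 1128 by 24 h. No single library of 14 h, 24 h or 36 h was left out for these counts. Samples with the same replicate number did not deviate together (correlations of 0.01, 0.02, -0.03, 0.02 and -0.03, and 1 of the 5 0 h samples correlated best with its own number), so the numbers were not used as pairs; with a replicate block 3099 genes were lower and 4335 higher, 2888 of the lower calls were made again, and 323 messages were lost. Against oocytes the block gave 3525 lower, against 14 h 2884, and for 14 h against 0 h 1409. No 0 h or 14 h library has the number of 36 h replicates 6, 7 and 8. With the block these embryos thus add nothing to the contrast of 36 h with 0 h or 14 h. Its values here and in the next paragraph rest on 36 h replicates 1 to 5.

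Over the alternatives of the named genes, 2563 values stayed on their side, 11 lost and 7 gained the threshold, and 44 changed sign, all of genes that passed the test in neither direction. These were Tcl1 (0.039), Btg4 (0.087), Mad2l1 (0.049) and Cnot7 (0.025) in DESeq2; Dppa3 (-0.043) and Mdm4 (-0.015) with scaling factors from 13 libraries; Tcl1 (0.020), Btg4 (0.022) and Cnot7 (0.0022) with gene totals alone; Mphosph6 (-0.63), Dppa3 (-0.38), Obox5 (-0.44), Mdm4 (-0.20) and H3f3b (-0.33) with the replicate block; and Btg4 (0.062), Dppa3 (-0.010), Bmp6 (-0.11) and Tcstv1 (-0.051) without the 3 libraries. With single libraries left out, log2 changes ran from -0.18 to 0.055 for Tcl1, -0.15 to 0.13 for Btg4, -0.18 to 0.12 for Mad2l1, -0.20 to 0.14 for Cnot7, -0.072 to 0.27 for Dppa3, -0.069 to 0.22 for Mphosph6, -0.092 to 0.35 for Bmp6, -0.039 to 0.15 for Mdm4 and -0.014 to 0.20 for H3f3b. In 1 edgeR fit of 81 libraries, Calm2 and Rpl32 did not pass, with adjusted p of 0.062 and 0.055. Depth limits the falls of genes with few counts at 36 h, and the cause of the other shifts was not tested.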
